A study of Mus musculus with 14 samples.

Results

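The genes described here are 39 mouse genes for interstitial collagens and extracellular matrix glycoproteins. Among them are lysyl oxidases, microfibril proteins and proteoglycans that are laid down with these. All 39 were chosen by name and by function, though earlier results of these data were known. Of the 39 genes, 35 had a probe set that pairs with exactly 1 gene symbol, among the 19938 genes measured in that way. Spp1, Fbn1 and Efemp2 had no probe set paired with their symbol in the annotation used here, and the probe set that names Loxl2 was paired with several symbols, so these 4 genes were not analysed here.

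RNA was measured on Affymetrix gene arrays in 14 samples of 4T1, a line from a mammary carcinoma of a BALB/c mouse that spreads to the lung when grown in mice. The study asked which transcripts move with Cnot7, which encodes a deadenylase, an enzyme that shortens the poly(A) tails of mRNAs within the CCR4-NOT complex. The groups were an empty vector for over-expression (vector control, 3 samples), CNOT7 (CNOT7 over-expression, 3 samples), the hairpins sh74 (2 samples) and sh75 (3 samples) against Cnot7, and a scrambled hairpin (shScramble, 3 samples). All cells had been transduced with lentivirus and grown in DMEM with serum, with blasticidin selection for the over-expression vectors and puromycin selection for the hairpins. The over-expressed protein came from a FLAG-tagged human cDNA behind a murine Pol2 promoter, which mouse probes need not detect. The samples are described as biological replicates, without a statement that they came from separate cultures, so each p-value reflects just the spread among the arrays at hand, which may be technical.

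Interstitial matrix is built outside the cell from fibrils of collagens I, III and V, from a finer network of collagen VI, and from glycoproteins such as fibronectin that link this scaffold to integrins on the cell surface. In a tumor, fibroblasts are known as the main makers of fibrillar collagen, while carcinoma cells themselves secrete fibronectin, thrombospondin, SPARC and tenascin in amounts that vary from line to line. Epithelial cells that take on mesenchymal features are known to make more fibronectin and SPARC. Lysyl oxidases crosslink collagen and elastin, fibulins and latent TGF-beta binding proteins sit on elastic microfibrils, and decorin, lumican and biglycan bind to collagen fibrils.

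Values are RMA log2 intensities, and a difference of 1 is a factor of 2. The levels of different genes were not compared, because probe sets differ in how strongly they bind. The background was taken from 1035 probe sets for olfactory receptors, genes that a mammary cell should not use, and 90% of their values lay below 4.91 on the log2 scale. Array medians lay between 6.31 and 6.38. Cnot7 itself lay between 10.20 and 10.44 in shScramble, at 8.71 and 9.33 in sh74 and between 7.52 and 8.51 in sh75. This was 40.4% of shScramble with sh74 (limma adjusted p = 0.279) and 20.4% with sh75 (adjusted p = 0.00911), while vector control and CNOT7 over-expression did not differ detectably in the mouse transcript (change 0.00076 ± 0.26 SE, log2). All 7 epithelial markers examined, Cdh1, Epcam, Esrp1, Cldn7, Krt8, Krt18 and Krt7, were above the background limit in every sample.

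Of the 35 measured matrix genes, 26 lay above the background limit in all 14 samples, where 69.7% of all probe sets tested did so. Another 4 passed it in some samples and 5 in none. With the limit at the 99th percentile of the olfactory receptor values, 6.18, the counts were 16 in all samples, 8 in some and 11 in none. The 5 that stayed below it everywhere were Lox, the founding lysyl oxidase, with values of 4.23 to 4.44, Mfap5, a microfibril protein, with 4.49 to 4.75, and 3 of the 4 proteoglycans. Decorin (Dcn) lay between 3.68 and 3.96, lumican (Lum) between 3.22 and 3.54 and versican (Vcan) between 4.38 and 4.64. No proteoglycan was above the limit throughout, since biglycan (Bgn) crossed it in 10 of 14 samples with values of 4.82 to 5.16. All 5 fibrillar collagens and all 3 collagen VI chains were above it in every sample, as were 4 of 5 other collagens, 5 of 7 adhesive and matricellular glycoproteins, 2 of 3 lysyl oxidases, 6 of 7 microfibril and elastic fiber genes, and Mgp, the matrix Gla protein that binds calcium.

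Being above the limit did not mean the same for each of these genes. For 8 of the 26, the highest and the lowest of 14 samples differed by less than 0.5 on the log2 scale. They were Col1a1 (6.64 to 6.83), Col1a2 (6.25 to 6.60), Col3a1 (6.29 to 6.61) and Col5a2 (5.07 to 5.23) among the fibrillar collagens, Col6a3 (5.48 to 5.73), and Loxl1, Fbln5 and Mfap2. The same was true of 7 of the 9 genes that were not above the limit throughout. Markers of cell types that a tumor cell culture should lack give a scale for this: 5 of 8 fibroblast markers, 2 of 5 immune markers and 1 of 5 endothelial markers were also above the limit in every sample. All of these but Pdgfra (6.83 to 9.25) and Cd68 (6.77 to 9.01), which varied widely, were flat in the same sense, among them the T cell gene Cd3e at 5.68 to 6.04 and the endothelial cadherin Cdh5 at 5.08 to 5.32. A flat value a little above the limit therefore did not by itself show that a gene was expressed. The highest value of these flat markers was 6.28, that of Acta2. Col1a1, Col1a2 and Col3a1 stayed above 6.18, the 99th percentile limit, in every sample. All values of Col1a1 and Col3a1 also lay above 6.28. At the other end, 14 of the 26 genes spanned at least 1 on the log2 scale. These were Fn1, Sparc, Tnc, Thbs1, Ecm1, Col6a1, Col8a1, Col18a1, Loxl3, Fbln1, Fbln2, Ltbp1, Ltbp2 and Mgp.

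**Figure D1:**
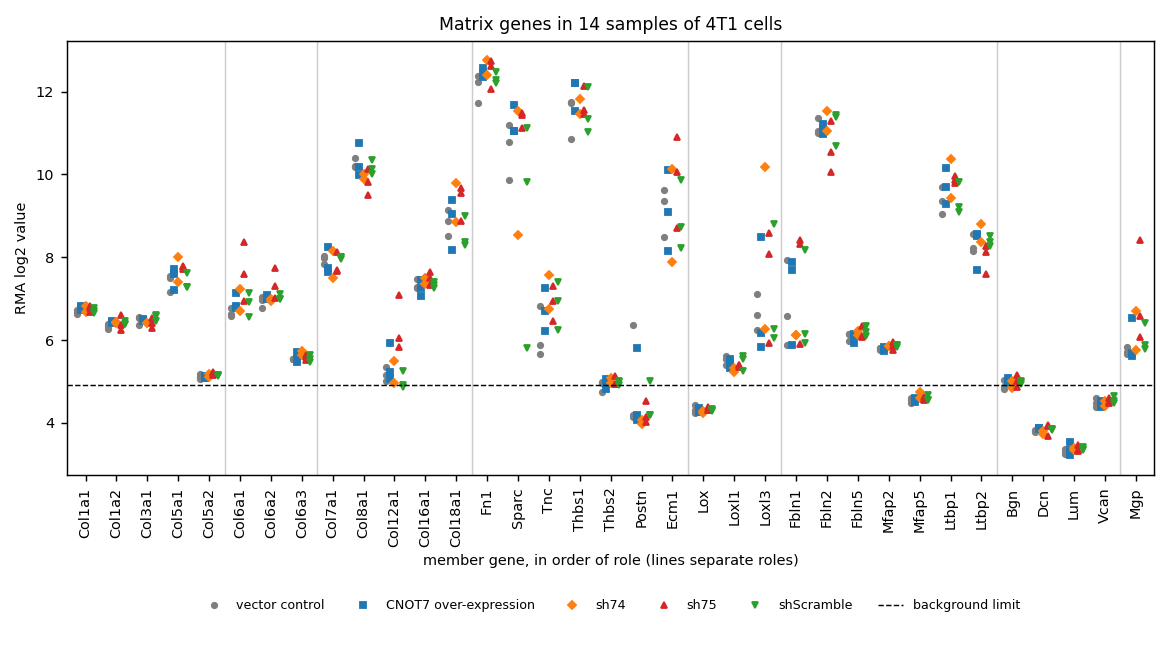
RMA log2 values of the 35 measured matrix genes in 14 samples of 4T1 cells, in the order of their roles, with a symbol for each of the 5 groups and a dashed line at the background limit of 4.91. Decorin and lumican lie below the line in every sample, Col1a1 spans 6.64 to 6.83, and Sparc spans 5.81 to 11.67.

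The upstream sequences of 3 genes are shown because the text turns on them: Sparc and Ecm1 for their wide spread between samples and Col6a1 for its values with sh75. RefSeq windows (GRCm38.p6) matched 26 of the 39 genes, and the 250 bases before the start are printed 5′ to 3′ on the gene's own strand. Sparc lies on the minus strand and its window is chr11:55420081-55420330. That of Ecm1, also on the minus strand, is chr3:95739570-95739819, and it belongs to a transcript start 307 bases inside the gene's outer end. The window of Col6a1 is chr10:76726045-76726294 on the minus strand. Capitals mark matches, on either strand, to the TATA box (TATAAA), the motif of AP-1 (TGANTCA), the GC box (GGGCGG) and an E-box (CAGGTG), which the repressors Zeb1 and Snai1 are known to bind.
Sparc: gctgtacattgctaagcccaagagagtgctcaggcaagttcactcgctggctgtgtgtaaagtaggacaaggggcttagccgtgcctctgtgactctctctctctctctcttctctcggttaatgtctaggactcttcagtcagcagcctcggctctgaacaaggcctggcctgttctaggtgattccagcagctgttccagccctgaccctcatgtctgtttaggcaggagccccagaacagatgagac
Ecm1: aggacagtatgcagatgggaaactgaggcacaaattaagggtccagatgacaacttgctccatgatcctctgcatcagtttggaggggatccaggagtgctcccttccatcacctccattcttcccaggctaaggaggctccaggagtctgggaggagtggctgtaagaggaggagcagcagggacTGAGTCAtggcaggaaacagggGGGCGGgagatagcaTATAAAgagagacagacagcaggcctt
Col6a1: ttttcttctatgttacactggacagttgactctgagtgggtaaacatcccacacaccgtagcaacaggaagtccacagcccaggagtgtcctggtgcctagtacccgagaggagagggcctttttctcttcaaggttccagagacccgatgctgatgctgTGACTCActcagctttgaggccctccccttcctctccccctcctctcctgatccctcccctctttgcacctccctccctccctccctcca
The Ecm1 window held a match to the AP-1 motif starting at position -64 from the start, a GC box at -42 and a TATA box at -27, none overlapping another. That of Col6a1 held 1 match, the AP-1 motif at -90, and that of Sparc held 0 matches to these motifs. Taking the first window of each gene, the E-box occurred in 4 of 26 matrix genes (15.4%) and in 17.2% of all 32851 windows. The TATA box occurred in 5 (19.2%, against 12.4%), the AP-1 motif in 2 (7.69%, against 6.75%) and the GC box in 17 (65.4%, against 32.7%). The matrix genes were counted with 1 window each and the reference with every window, so these shares are not strictly alike. All are matches of letters only.

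Samples of the same group differed widely for many matrix genes. The SD within groups, pooled over the 5 groups, had a median of 0.23 over the 35 genes and 0.13 over all probe sets tested (log2 units). It reached the top 10% of all probe sets, above 0.33, for 14 of the 35 genes, where 10% of all probe sets do so by construction. Differences between group means made up a median 35.0% of the variance of a matrix gene and 32.0% over all probe sets. With 5 groups of 2 or 3 samples, a share of about this size is expected even where the groups do not truly differ. It is therefore no measure of an effect of treatment. The largest SDs were those of Sparc (1.53), Loxl3 (1.52), Fbln1 (1.15) and Ecm1 (1.0). In bulk RNA, fewer cells that express a gene and less RNA per cell cannot be told apart, and this holds for each difference between samples below.

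**Figure D2:**
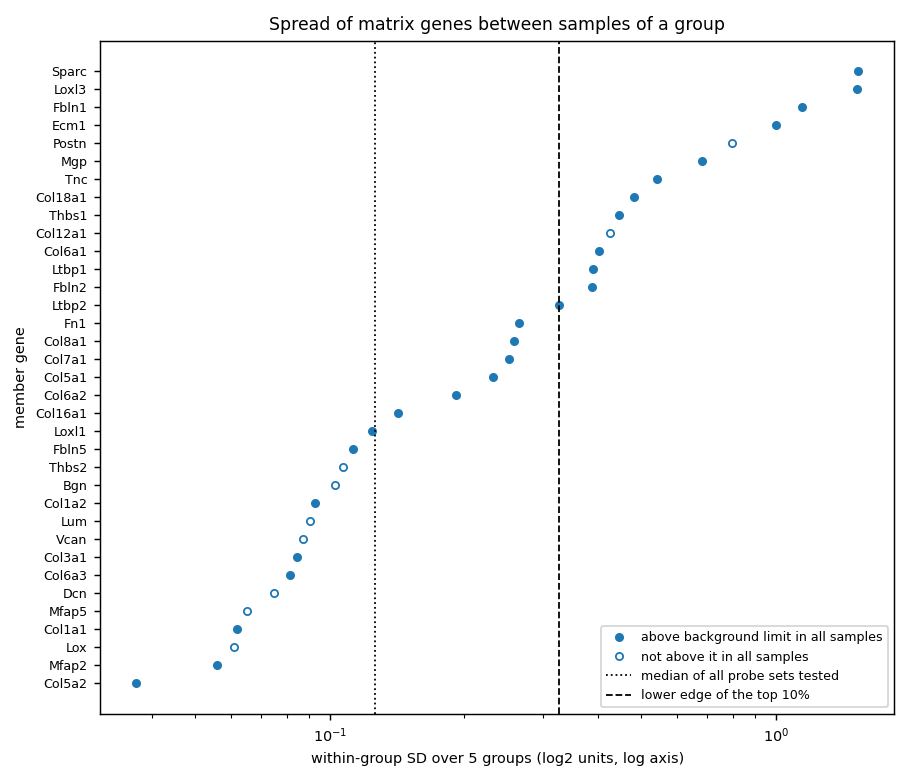
Pooled within-group SD in log2 units (log axis) for each of the 35 matrix genes, filled where the gene was above the background limit in all samples, with the median of all probe sets tested (0.13) dotted and the edge of their top 10% (0.33) dashed. Sparc and Loxl3 lie farthest to the right, and 14 genes lie beyond the dashed line.

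Sparc encodes osteonectin, a matricellular protein that binds collagen and calcium. Its log2 values were 10.78, 9.87 and 11.20 in vector control, 11.04, 11.05 and 11.67 in CNOT7 over-expression, 11.54 and 8.53 in sh74, 11.12, 11.43 and 11.49 in sh75, and 9.82, 5.81 and 11.12 in shScramble. The span of 58.2-fold came mostly from 2 samples, shScramble replicate 2 and sh74 replicate 2, which were the lowest of all. The 3 sh75 samples agreed closely and were all higher than the 3 shScramble samples. The margin was very thin, with shScramble replicate 3 at 11.119 and the lowest sh75 sample, replicate 1, at 11.123. The change with sh75 was 2.43 ± 1.13 SE and did not pass (limma adjusted p = 0.617). Without shScramble replicate 2 it was 0.88 (adjusted p = 0.938).

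Loxl3, a lysyl oxidase-like enzyme that crosslinks collagen, spanned 20.2-fold. Its values were 6.25, 6.61 and 7.11 in vector control, 5.84, 6.17 and 8.49 in CNOT7 over-expression, 10.17 and 6.26 in sh74, 5.93, 8.59 and 8.07 in sh75, and 6.26, 6.04 and 8.81 in shScramble. Every group but vector control held both a sample near 6 and a sample above 8, and the groups overlapped throughout. Loxl1, the other lysyl oxidase above the limit, was at 5.55, 5.40 and 5.63 in vector control, 5.51, 5.32 and 5.54 in CNOT7 over-expression, 5.33 and 5.22 in sh74, 5.36, 5.41 and 5.40 in sh75, and 5.60, 5.24 and 5.55 in shScramble. It stayed within 0.40 over all samples, although its highest sample was also that of Loxl3 in every group except shScramble.

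Fbln1 encodes fibulin-1, a glycoprotein of basement membranes and elastic fibers. It was at 6.58, 5.88 and 7.95 in vector control, 5.87, 7.68 and 7.90 in CNOT7 over-expression, 6.12 and 6.13 in sh74, 5.90, 8.41 and 8.31 in sh75, and 6.14, 5.93 and 8.18 in shScramble. No sample lay between 6.58 and 7.68, and every group except sh74 had samples on both sides of this gap. Fibulin-2 (Fbln2) lay between 10.05 and 11.54, with its lowest value in sh75 replicate 2, and fibulin-5 (Fbln5) was flat, between 5.93 and 6.34.

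Ecm1, a secreted glycoprotein that binds perlecan and fibulins, was at 9.62, 8.49 and 9.35 in vector control, 8.15, 9.08 and 10.10 in CNOT7 over-expression, 10.12 and 7.88 in sh74, 8.71, 10.91 and 10.06 in sh75, and 8.22, 8.72 and 9.86 in shScramble. All 5 groups overlapped. Its highest and lowest samples both carried a hairpin against Cnot7, and they differed 8.19-fold. Mgp was at 5.71, 5.66 and 5.83 in vector control, 5.69, 5.61 and 6.53 in CNOT7 over-expression, 6.70 and 5.77 in sh74, 6.09, 8.41 and 6.58 in sh75, and 5.88, 5.77 and 6.41 in shScramble. Here 1 sample, sh75 replicate 2, stood far above the others, and the change with sh75 of 1.0 ± 0.51 SE did not pass (adjusted p = 0.654).

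Postn and Col12a1 were not always above the limit and are described because of their values, which were seen before they were chosen. Periostin (Postn), a matricellular protein made by activated fibroblasts, was at 6.37 in vector control replicate 1, 5.81 in CNOT7 over-expression replicate 1 and 5.02 in shScramble replicate 1, and between 3.98 and 4.54 in the other samples. It was thus above the limit in 3 samples of 3 different groups. Thbs2 crossed the limit in 12 samples within the narrow range of 4.74 to 5.13.

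**Figure D3:**
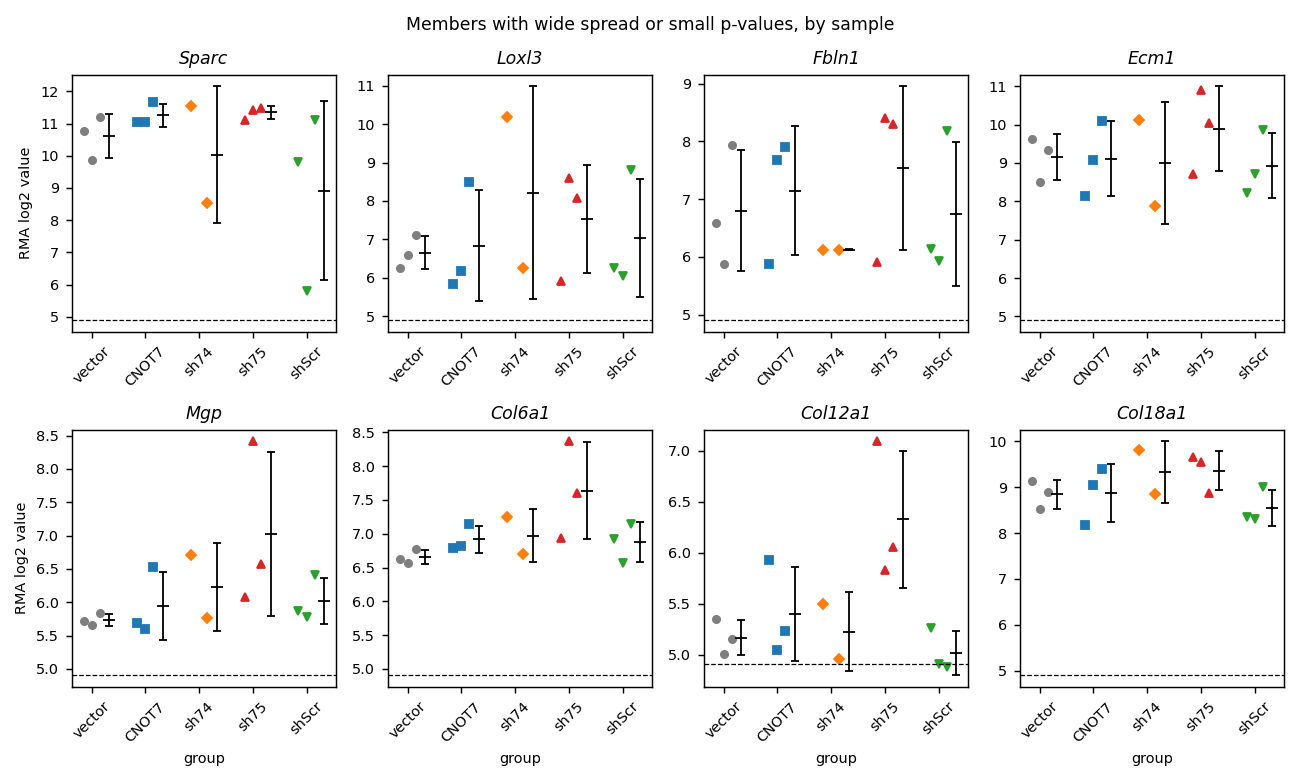
RMA log2 values of 8 matrix genes in each sample by group (vector for vector control, CNOT7 for over-expression, shScr for shScramble), with the mean ± SD of each group in black and the background limit of 4.91 dashed. Sparc is lowest in shScramble replicate 2 (5.81), Fbln1 has no sample between 6.58 and 7.68, and the 3 sh75 samples of Col12a1 lie at 5.83 and above.

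The samples in which these genes were high recurred. Within each group, the sample with the most Vim, the intermediate filament of mesenchymal cells, was vector control replicate 3 (12.63), CNOT7 over-expression replicate 3 (13.01), sh74 replicate 1 (13.06), sh75 replicate 2 (13.02) and shScramble replicate 3 (12.81). In all 5 groups this same sample was the highest for Col6a1, Loxl3, Ltbp1 and Mgp, 4 of the 35 genes, where 2.84% of all probe sets showed this order. In at least 4 of the 5 groups it was the highest for 12 genes (11.3% of all probe sets). These included Sparc, Ecm1, Fbln1, Fn1, Col5a1 and Col6a2. It was the lowest in all 5 groups for 0 genes (2.01% of all probe sets) and in at least 4 groups for 5 genes, Fbln2, Fbln5, Postn, Col1a1 and Mfap2 (11.4%).

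Markers of other cell types did not share a single order. In 4 of 5 groups the sample with the most Vim was highest for Pdgfra, a fibroblast receptor, and Cd68, a lysosomal protein of macrophages. Vector control replicate 2 was the exception for both. Of the 8 fibroblast markers, 1 was highest there in at least 4 groups and 3 were lowest, Pdgfrb, Pdpn and Acta2, all flat. Of the 5 immune markers, Cd68 alone was highest there in at least 4 groups, and 0 were lowest. The fibroblast markers Fap and Dpt and the immune markers Ptprc, Adgre1 and Itgam were below the background limit in all samples. The mean of the 8 fibroblast markers lay between 5.37 and 5.56 in vector control, 5.52 and 5.65 in CNOT7 over-expression, 5.50 and 5.69 in sh74, 5.52 and 5.63 in sh75, and 5.50 and 5.51 in shScramble. That of the 5 immune markers lay between 5.46 and 5.60, 5.26 and 5.71, 5.46 and 5.59, 5.36 and 5.70, and 5.52 and 5.72 in the same order of groups. Most markers of both lists were flat or below the limit, so these means could move little. Pdgfra spanned 2.42 and Cd68 2.24 over all samples on the log2 scale. The part of these markers in the order of the matrix genes was not tested.

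The epithelial markers did not all share the order by Vim. The sample with the most Vim was the lowest in all 5 groups for Epcam and Cldn7 and in 4 for Cdh1 and Esrp1. It was the lowest in 3 for Krt7 and in 1 each for Krt8 and Krt18. Among mesenchymal markers other than Vim, it was the highest in all 5 groups for Zeb2, in 4 for Twist1, in 3 for Zeb1 and in 1 for Cdh2. For Snai2 it was the lowest in 4 groups. Snai2 passed the background limit in 1 sample and Cdh2 in 0. Epcam, the epithelial adhesion molecule, was at 5.98 in sh74 replicate 1 and 10.01 in sh74 replicate 2, and the sample with the least Epcam was in each group the one with the most Vim, so that it gives the same 4 genes by construction. Esrp1, an epithelial splicing regulator, was at 5.42 in CNOT7 over-expression replicate 3, 5.65 in sh74 replicate 1, 5.21 in shScramble replicate 3, 6.50 and 6.49 in sh75 replicates 2 and 3, and between 9.73 and 11.01 in the other samples. Taking the sample with the least Esrp1 instead left only Sparc (1.12% of all probe sets), because sh75 replicate 3 then took the place of replicate 2 by 0.01. These are descriptions of 14 samples, without a test.

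**Figure D4:**
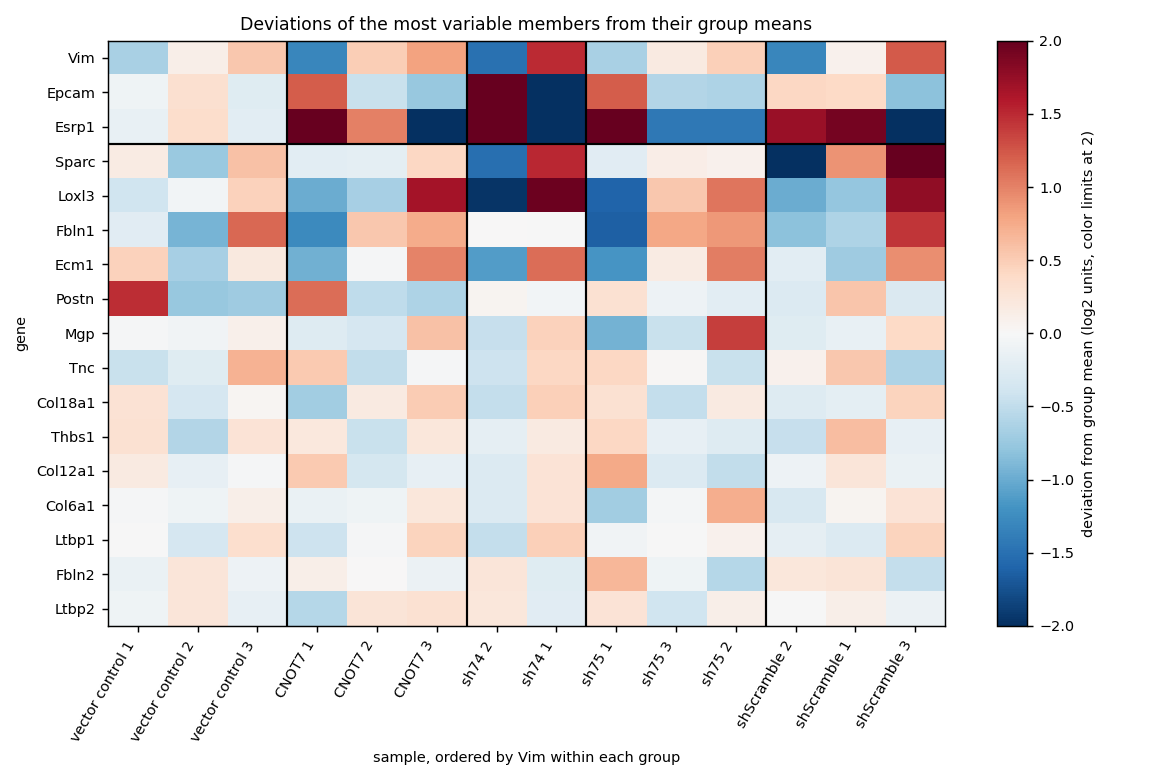
Deviation of each sample from its group mean in log2 units (colors end at -2 and 2) for Vim, Epcam and Esrp1 and, below the line, for the 14 matrix genes with a within-group SD in the top 10%, samples ordered by Vim within each group. In the sample with the most Vim of each group, Loxl3, Mgp, Col6a1 and Ltbp1 are at their group's highest, while Fbln2 is at its group's lowest in 4 of 5 groups.

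For CNOT7 over-expression against vector control, 0 of the 35 genes were called at an adjusted p under 0.05, and 0% of all 21789 probe sets were. At an unadjusted p under 0.05 the count was also 0 (2.58% of all probe sets). Changes were higher for 23 genes (53.9% of all probe sets) and lower for 12, with a median of 0.052 (0.0089 over all probe sets). Of the 26 genes always above the limit, 17 were higher and 9 lower. The samples of the 2 groups did not overlap for 4 genes (7.72% of all probe sets), all higher: Col1a1 by 0.09, Col1a2 by 0.10, Col6a1 by 0.25 and Dcn by 0.06 on the log2 scale.

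The smallest p-values in this comparison belonged to 3 glycoproteins that bind cell surface receptors. Fibronectin (Fn1) was at 11.72, 12.38 and 12.24 in vector control and 12.34, 12.44 and 12.57 with CNOT7, a change of 0.34 ± 0.20 SE (adjusted p = 1.0). Vector control replicate 1 was the lowest of all 14 samples for Fn1, and replicate 2 lay within the CNOT7 range. Thrombospondin-1 (Thbs1), which activates latent TGF-beta and restrains vessel growth, was at 11.75, 10.86 and 11.72 against 12.20, 11.54 and 12.22 (0.54 ± 0.33 SE). Tenascin-C (Tnc) was at 5.67, 5.88 and 6.82 against 7.25, 6.22 and 6.69 (0.60 ± 0.40 SE). Both overlapped between the groups, with 2 of 3 vector samples below all CNOT7 samples for Tnc. Fn1 was at 12.75 and 12.40 in sh74, 12.62, 12.73 and 12.06 in sh75, and 12.28, 12.21 and 12.48 in shScramble. Thbs1 was at 11.82 and 11.45, then 12.14, 11.47 and 11.55, and last 12.12, 11.03 and 11.34 in the same order. Tnc was at 7.57 and 6.75, then 7.32, 6.47 and 6.94, and last 7.40, 6.94 and 6.24. Neither hairpin was apart from shScramble for any of these 3 genes.

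With sh74, 0 of the 35 genes were called (0.00918% of all probe sets), and 0 had an unadjusted p under 0.05 (7.33%). The values were higher for 20 genes (51.3% of all probe sets) and lower for 15, with a median change of 0.056 against 0.0044 over all probe sets. Among the 26 genes always above the limit, 17 were higher and 9 lower. With only 2 sh74 samples, the groups did not overlap for 22% of all probe sets. Here that held for 4 genes, Col3a1, Col8a1, Postn and Dcn, all lower with sh74.

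For sh75 the count was again 0 (0.0918% of all probe sets), with 3 genes at an unadjusted p under 0.05 (8.26%): Col12a1, Col6a1 and Col18a1. Values were higher for 23 genes (49.8% of all probe sets) and lower for 12, with a median of 0.039 against -0.00054 over all probe sets. Again 17 of the 26 genes always above the limit were higher and 9 lower. The groups did not overlap for 3 genes, Col5a1, Col12a1 and Sparc, all higher with sh75 (13.5% of all probe sets). Taking the mean of both hairpins, 0 genes were called (0.0184%), 2 had an unadjusted p under 0.05, Col12a1 and Col18a1 (7.3%), and for 0 genes did the hairpin samples not overlap shScramble (3.93%). Both hairpins are compared with the same 3 shScramble samples, so their changes are not independent.

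**Figure D5:**
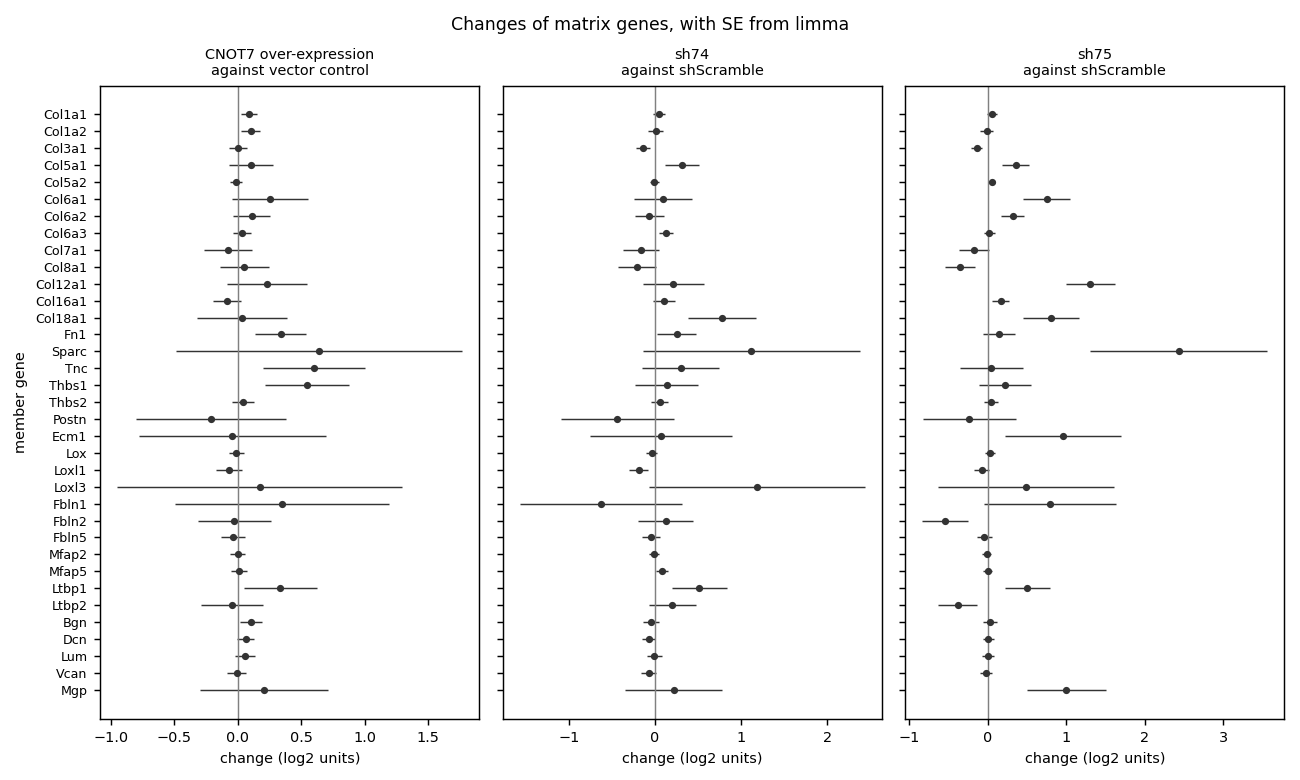
Changes of the 35 matrix genes in log2 units with the SE from limma, for CNOT7 over-expression against vector control, sh74 against shScramble and sh75 against shScramble; the scales of the panels differ. None passed an adjusted p of 0.05, and the longest error bars are those of Sparc, Loxl3, Fbln1 and Ecm1.

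Collagen XVIII (Col18a1), whose end fragment is endostatin, had the smallest p of the genes always above the limit in 3 of the comparisons. Its values were 9.13, 8.51 and 8.89 in vector control, 8.18, 9.05 and 9.39 in CNOT7 over-expression, 9.80 and 8.86 in sh74, 9.66, 9.54 and 8.88 in sh75, and 8.36, 8.30 and 9.01 in shScramble. In both hairpin groups 1 sample lay below shScramble replicate 3, so neither group was clear of the control. The change was 0.78 ± 0.40 SE with sh74 (adjusted p = 0.723), 0.81 ± 0.36 SE with sh75 (adjusted p = 0.597) and 0.79 ± 0.32 SE for both (adjusted p = 0.641).

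Collagen VI forms beaded microfibrils from 3 chains, which were not alike here. Col6a1 was at 6.63, 6.57 and 6.78 in vector control, 6.78, 6.82 and 7.14 in CNOT7 over-expression, 7.24 and 6.70 in sh74, 6.93, 8.37 and 7.60 in sh75, and 6.92, 6.56 and 7.15 in shScramble. Col6a2 was at 6.96, 6.77 and 7.04, then 7.02, 7.0 and 7.08, then 6.99 and 6.95, then 7.01, 7.75 and 7.30, and last 7.12, 7.0 and 6.98 in the same order of groups. For both chains sh75 replicates 2 and 3 were the highest of all 14 samples and replicate 1 was among the rest. The titles of sh75 replicates 2 and 3 share the number before the point, and that of replicate 1 differs. The meaning of this number is not stated, so replicates 2 and 3 may not be independent. Col6a3 was flat.

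The change of Col6a1 with sh75 was 0.75 ± 0.30 SE (adjusted p = 0.531) and that of Col6a2 0.32 ± 0.15 SE (adjusted p = 0.613). Without sh75 replicate 2, these were 0.39 and 0.12. Without sh75 replicate 1, they were 1.1 and 0.49 (adjusted p = 0.301 and 0.365). In the same comparison Vim changed by 0.96 ± 0.84 SE and Epcam by -0.76 ± 0.91 SE (adjusted p = 0.821 and 0.879), and all 7 epithelial markers were lower, none called. Their part in the collagen VI values was not tested.

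Collagen XII (Col12a1), which coats collagen I fibrils, came nearest to a call. Its values were 5.35, 5.01 and 5.15 in vector control, 5.93, 5.05 and 5.23 in CNOT7 over-expression, 5.50 and 4.96 in sh74, 7.09, 5.83 and 6.06 in sh75, and 5.26, 4.91 and 4.88 in shScramble. All sh75 samples were above all shScramble samples, but CNOT7 over-expression replicate 1 reached into their range. The change with sh75 was 1.31 ± 0.32 SE, or 2.48-fold (unadjusted p = 0.00158, adjusted p = 0.250), and with sh74 0.21 ± 0.35 SE (adjusted p = 0.946). Without sh75 replicate 1, the highest sample, the change with sh75 was 0.93 (adjusted p = 0.397). Unlike collagen VI, Col12a1 was lowest in the sh75 sample with the most Vim.

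The fibrillar collagens moved little. Col5a1, which sets fibril diameter, was at 7.15, 7.55 and 7.49 in vector control, 7.21, 7.59 and 7.71 in CNOT7 over-expression, 8.01 and 7.41 in sh74, 7.72, 7.79 and 7.76 in sh75, and 7.29, 7.29 and 7.63 in shScramble. The sh75 samples agreed within 0.1 and stood above shScramble, while sh74 replicate 2 lay within the shScramble range. The change for both hairpins was 0.33 ± 0.16 SE (adjusted p = 0.696).

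Col3a1 was at 6.57, 6.36 and 6.52 in vector control, 6.46, 6.52 and 6.48 in CNOT7 over-expression, 6.42 and 6.40 in sh74, 6.29, 6.42 and 6.53 in sh75, and 6.61, 6.58 and 6.46 in shScramble. Both sh74 samples were below all shScramble samples, by hundredths for the nearest. The change was -0.14 ± 0.08 SE with sh74 (adjusted p = 0.789) and -0.14 ± 0.07 SE for both hairpins (adjusted p = 0.696), from a probe set that was flat in all 14 samples. Loxl1, described above, changed by -0.19 ± 0.11 SE with sh74 (adjusted p = 0.790).

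Over all 5 groups, limma's F test called 0 of the 35 genes (0.0597% of all probe sets), and 1 gene, Col12a1, had an unadjusted p under 0.05 (9.24%). Its p was 0.0117 and its adjusted p 0.348. After it, the smallest p among genes always above the limit were those of Col6a1 (0.0649), Col6a2 (0.0958) and Col8a1 (0.129). Col8a1, a short-chain collagen of vessel walls, was at 10.18, 10.20 and 10.39 in vector control, 9.99, 10.76 and 10.19 in CNOT7 over-expression, 10.01 and 9.90 in sh74, 10.13, 9.51 and 9.81 in sh75, and 10.13, 10.01 and 10.35 in shScramble. Most samples lay near 10, with CNOT7 over-expression replicate 2 the highest and sh75 replicate 2 the lowest.

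The last comparison, called the dose contrast, subtracts the mean change of both hairpins from the change with CNOT7, so that a gene that follows Cnot7 in both directions stands out. It called 0 of the 35 genes (0% of all probe sets), and 0 had an unadjusted p under 0.05 (3.49%). The smallest p were those of Col18a1 (-0.76 ± 0.48 SE), Col16a1 (-0.22 ± 0.15 SE) and Col3a1 (0.14 ± 0.10 SE), each with an adjusted p of 1.0. Col16a1, a collagen that bridges fibrils and other matrix, was at 7.27, 7.48 and 7.27 in vector control, 7.06, 7.25 and 7.46 in CNOT7 over-expression, 7.51 and 7.36 in sh74, 7.34, 7.66 and 7.50 in sh75, and 7.33, 7.27 and 7.40 in shScramble. The groups overlapped in each comparison.

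The remaining genes varied without an order by group. Col7a1, the anchoring fibril collagen of skin, lay between 7.51 and 8.24, Ltbp1 between 9.04 and 10.37 and Ltbp2 between 7.61 and 8.81. Both latent TGF-beta binding proteins were past the edge of the top 10% in within-group SD (0.39 and 0.33). For Ltbp1 the highest sample was sh74 replicate 1 and for Ltbp2 it was sh74 replicate 2, while CNOT7 over-expression replicate 3 was the second highest for both. Mfap2 lay between 5.74 and 5.95.

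The genes that modify and fold collagen were examined as a separate list of 26, of which 24 were measured and 22 lay above the background limit throughout. None was called in any comparison, and 0, 4, 2, 4 and 1 of the 24 had an unadjusted p under 0.05 in over-expression, sh74, sh75, both hairpins and the dose contrast, where 2.58%, 7.33%, 8.26%, 7.3% and 3.49% of all probe sets did. Plod2, a lysyl hydroxylase, was at 9.03, 9.27 and 9.36 in shScramble and 8.31 and 8.03 in sh74, a change of -1.05 ± 0.23 SE (adjusted p = 0.285). With sh75 it was at 8.79, 9.23 and 9.24, which overlaps shScramble (-0.13 ± 0.21 SE, adjusted p = 0.913). Bmp1, the protease that removes the C-propeptide of fibrillar procollagens, was at 10.76, 10.95 and 11.17 in shScramble and 11.57, 11.63 and 11.25 in sh75, a change of 0.52 ± 0.14 SE (adjusted p = 0.324). The groups did not overlap for Plod2 with sh74 (22% of all probe sets) or for Bmp1 with sh75 (13.5%). In this list too the spread within groups was wide, with 8 of 24 genes in the top 10%.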

How the data were processed

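Total RNA of 14 samples of 4T1 cells was hybridized to Affymetrix Mouse Gene 1.0 ST arrays. The authors processed the arrays by RMA (R package oligo, versions not given in the sources used here), which corrects background, equalizes array distributions and summarizes probe sets, and deposited the log2 values. These were used as deposited. Because RMA makes the arrays alike, a shift shared by most genes would not be seen. Of 35556 probe sets, 21789 paired with 1 symbol and were tested, 1621 paired with several and 12146 with none. Entrez identifiers of 21698 were found in the RefSeq table of GRCm38.p6 and 0 symbols changed. Each of the 35 genes had 1 probe set. The number of arrays limits the precision.

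Groups came from the treatment labels. A single model of 14 samples in 5 groups was fitted with limma 3.58.1 in R 4.3.3 (lmFit, eBayes, 9 residual and 2.09 prior degrees of freedom). All p-values are two-sided, with Benjamini-Hochberg adjustment over 21789 probe sets within each comparison. The procedure was tested on simulated data. The genes, lists and comparisons were chosen with earlier results of these data known. Values in every sample were given for genes above background throughout with 1 of the 3 smallest p-values in a comparison or 1 of the 8 largest within-group SDs. Alternatives were other background limits, normalization again, centering, a filter on dim probe sets, array weights, another variance prior and the methods' t-test. Further ones were the groups of the comparison alone, blocks by title number, and each sample left out. The mean and the dimmest probe set of a gene were also taken. They left the values of the 35 genes unchanged, since each had 1 probe set.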

Additional observations from a re-analysis of the deposited data

Results flagged for a closer look

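Decorin (Dcn) was picked out because its samples lay apart in opposite directions in 2 comparisons. All 3 samples of CNOT7 over-expression were above all vector control samples (change 0.064, log2), and both sh74 samples were below all shScramble samples (change -0.074). With sh75, the other hairpin, the values of 3.68, 3.96 and 3.93 overlapped those of shScramble (3.83 to 3.85), with a change of 0.012. The difference between the over-expression and sh74 changes was not tested. Dcn was below the background limit in all 14 samples.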

How the results depend on the processing

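The count of called genes was 0 in all 6 comparisons under every alternative that was run, leaving out each sample in turn included. The 15 changes of named genes always above the limit gave 345 recomputed values. Many of them could not differ from the main value, because the alternative altered just the spread, the probe sets tested or a group outside the comparison. All 345 values kept the direction of the change. None of these was called, and their smallest adjusted p was 0.204. Col12a1, which was not always above the limit, was not among these genes. The number before the point in the sample titles could be used as a replicate block for sh75 against shScramble only, where the count stayed at 0 and Col6a1 changed by 0.68 (adjusted p = 0.871). The other comparisons could not be fitted with it, and the methods' t-test gave no value over 5 groups. Samples with the same number did not pair clearly: deviations of sh75 and shScramble samples that share one correlated at 0.41, 0.59 and -0.026. Pairs within a group that share a number, replicates 2 and 3 of sh75 and of CNOT7 over-expression, were not part of this check. The number after the point as a block, chosen after seeing the data, also gave 0. The background limit mattered more. At the 99th percentile of the olfactory receptor values, 16 genes in place of 26 were above it in all samples, 8 in some and 11 in none, and at the 95th percentile 8 were above it in none in place of 5. Col1a1, Col1a2 and Col3a1, though flat, were among the 16 above the 99th percentile in all samples. Signal near background thus limits what can be said of the other flat genes, and 2 or 3 arrays a group limit the changes that could be called.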
